A study of Mus musculus with 22 samples.

Results

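The postsynaptic density scaffolds followed here are 9 genes, 3 of the Shank family (Shank1, Shank2 and Shank3), 2 of the discs-large family (Dlg2 and Dlg4), 2 of the discs-large associated family (Dlgap1 and Dlgap3) and 2 of the Homer family (Homer1 and Homer2). They were taken by gene symbol from a table of 17306 genes, and all 9 were among the 16765 genes that passed the filter on low values. RNA sequencing was done on lumbar spinal cord of 22 wildtype C57BL6J mice, all collected at day 30 after monoiodoacetate (MIA, 1 mg), an inhibitor of glycolysis, had been injected into the knee joint of every mouse to cause joint pain. Early SAFit2 mice (n = 5) had received SAFit2, an inhibitor of the stress regulator FKBP51, at 100 mg/kg in a slow-release vesicular phospholipid gel (VPG) on days -3 and 4, and Late SAFit2 mice (n = 5) the same dose on days 20 and 27. Early Vehicle (n = 6) and Late Vehicle mice (n = 6) had the gel alone on the same days. No uninjured mice were analysed here, so each effect of SAFit2 was measured on top of MIA. Mice were 12 to 14 weeks old at collection. The sample protocol gives days 3 and 4 for the early injections where the methods give days -3 and 4, and the sample titles of the Early SAFit2 mice read SAFit1 where their treatment label reads SAFit2. Early and Late are also the labels' batches, and timing and batch cannot be told apart.

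The postsynaptic density is the protein mesh under the membrane of excitatory synapses, including those at which pain-sensing fibers reach dorsal horn neurons. It is built in layers. Dlg proteins hold NMDA and AMPA receptor complexes at the membrane, Dlgap proteins bind the Dlg proteins from below, Shank proteins bind the Dlgap proteins and spread the mesh towards the actin skeleton, and Homer proteins tie Shank to metabotropic glutamate receptors and to calcium stores. Loss of one SHANK3 copy causes Phelan-McDermid syndrome, in which reduced pain responses are common, and a short form of Homer1 is an immediate early gene that loosens the mesh when neurons are active.

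The genes differ widely in the share of G and C bases. To show this, 120 bases from the middle of the longest coding sequence are given for the 4 genes that passed the test in late mice, from GENCODE M21 (GRCm38), on the coding strand, with G and C in capitals.

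Shank3: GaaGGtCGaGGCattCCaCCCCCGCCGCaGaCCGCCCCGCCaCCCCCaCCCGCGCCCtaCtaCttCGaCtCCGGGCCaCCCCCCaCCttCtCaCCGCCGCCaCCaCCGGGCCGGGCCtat
Dlgap3: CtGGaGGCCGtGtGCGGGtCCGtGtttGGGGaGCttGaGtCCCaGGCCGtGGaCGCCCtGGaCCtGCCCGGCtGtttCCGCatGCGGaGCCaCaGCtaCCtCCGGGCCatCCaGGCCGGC
Dlg4: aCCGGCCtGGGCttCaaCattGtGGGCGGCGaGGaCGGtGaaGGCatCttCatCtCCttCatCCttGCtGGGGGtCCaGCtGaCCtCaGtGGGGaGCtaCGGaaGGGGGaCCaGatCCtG
Homer1: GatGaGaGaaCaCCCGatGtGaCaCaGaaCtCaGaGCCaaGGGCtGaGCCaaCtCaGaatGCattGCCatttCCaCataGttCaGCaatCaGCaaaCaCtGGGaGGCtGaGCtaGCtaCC

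The Shank3 stretch lies at chr15:89547700-89547819 within 1 exon on the plus strand and is 74.2% G and C. That of Dlgap3 (chr4:127214330-127214449, 1 exon, plus strand) holds 70.8%, that of Dlg4 (chr11:70039196-70039315, 1 exon, plus strand) 61.7%, and that of Homer1, which runs over 2 exons between 93356000 and 93387563 on the plus strand of chromosome 13, 50.8%. Over the whole coding sequence GC content was 64.6% for Shank3, 64.8% for Dlgap3, 63.6% for Shank1, 58.9% for Shank2, 57.7% for Dlgap1, 56.8% for Dlg4, 54.1% for Homer2, 46.5% for Homer1 and 46.3% for Dlg2. The median over all tested genes with a coding sequence was 53.2%. In the longest transcript, which adds the untranslated parts, the order was the same except that Homer1 (36.9%) came after Dlg2 (44.3%), and Dlg4 was at 46.8%.

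Reads on genes ranged from 11352989 to 24433349 per library, and each of the 9 genes had at least 113 reads in every mouse. Late SAFit2 replicates 4 and 5 had the fewest (11352989 and 11503386), against at least 13862129 in Late Vehicle mice. Values are log2 CPM, which is log2 counts (reads) relative to a scaled library size, the usual CPM. Neuron, astrocyte and oligodendrocyte markers were present in all libraries (summed levels of at least 4242, 1363 and 13194 CPM), as fits spinal cord. Of the sensory ganglion markers, Scn10a and Trpv1 have no entry in the table. Avil has an entry and was low, from 0.11 CPM (the floor of the values, which marks 0 reads) in a Late SAFit2 mouse to 1.99 CPM in an Early Vehicle mouse. Late SAFit2 libraries stood apart from Late Vehicle libraries in more than the scaffold genes. Bc1, a short neuronal RNA, took 3.31 to 16.5% of reads in Late SAFit2 against 1.32 to 7.55% in Late Vehicle mice, and mitochondrial genes 12.7 to 14.9% against 6.82 to 13.9%. Late Vehicle replicates 2 and 6 had the highest shares of both in their group, and in most scaffold genes they lay near the Late SAFit2 mice. The skeletal muscle markers summed to 47.5 and 39.0 CPM in Late SAFit2 replicates 3 and 5 and to at most 4.90 CPM elsewhere.

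Per length, Dlg4 (PSD-95) was the most abundant of the 9, with a median over the 22 mice of 18.9 CPM per kb of exon (range 12.9 to 28.8). Dlgap3 followed at 12.8 CPM per kb, Dlg2 at 10.1, Shank1 at 8.09, Dlgap1 at 7.89, Shank3 at 4.46, Homer1 at 2.41, Homer2 at 1.61 and Shank2 at 1.38. Not all steps in this order were held by the single mice. Dlg4 exceeded Dlgap3 in 20 of 22 mice and Dlgap1 exceeded Shank3 in 21, whereas Shank1 exceeded Dlgap1 in 11 and Homer2 exceeded Shank2 in 10, so that neither of the latter pairs could be ordered. Dlgap3 and Dlg2, and Dlg2 and Shank1, kept their order in 16 and 15 mice. Within the Shank family, Shank1 stood highest and Shank2 lowest. With the length of the longest transcript instead of all exons, Dlg4, Shank3, Homer1, Homer2 and Shank2 kept their places, while Dlg2 and Dlgap1 moved ahead of Dlgap3 and Shank1.

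**Figure D1:**
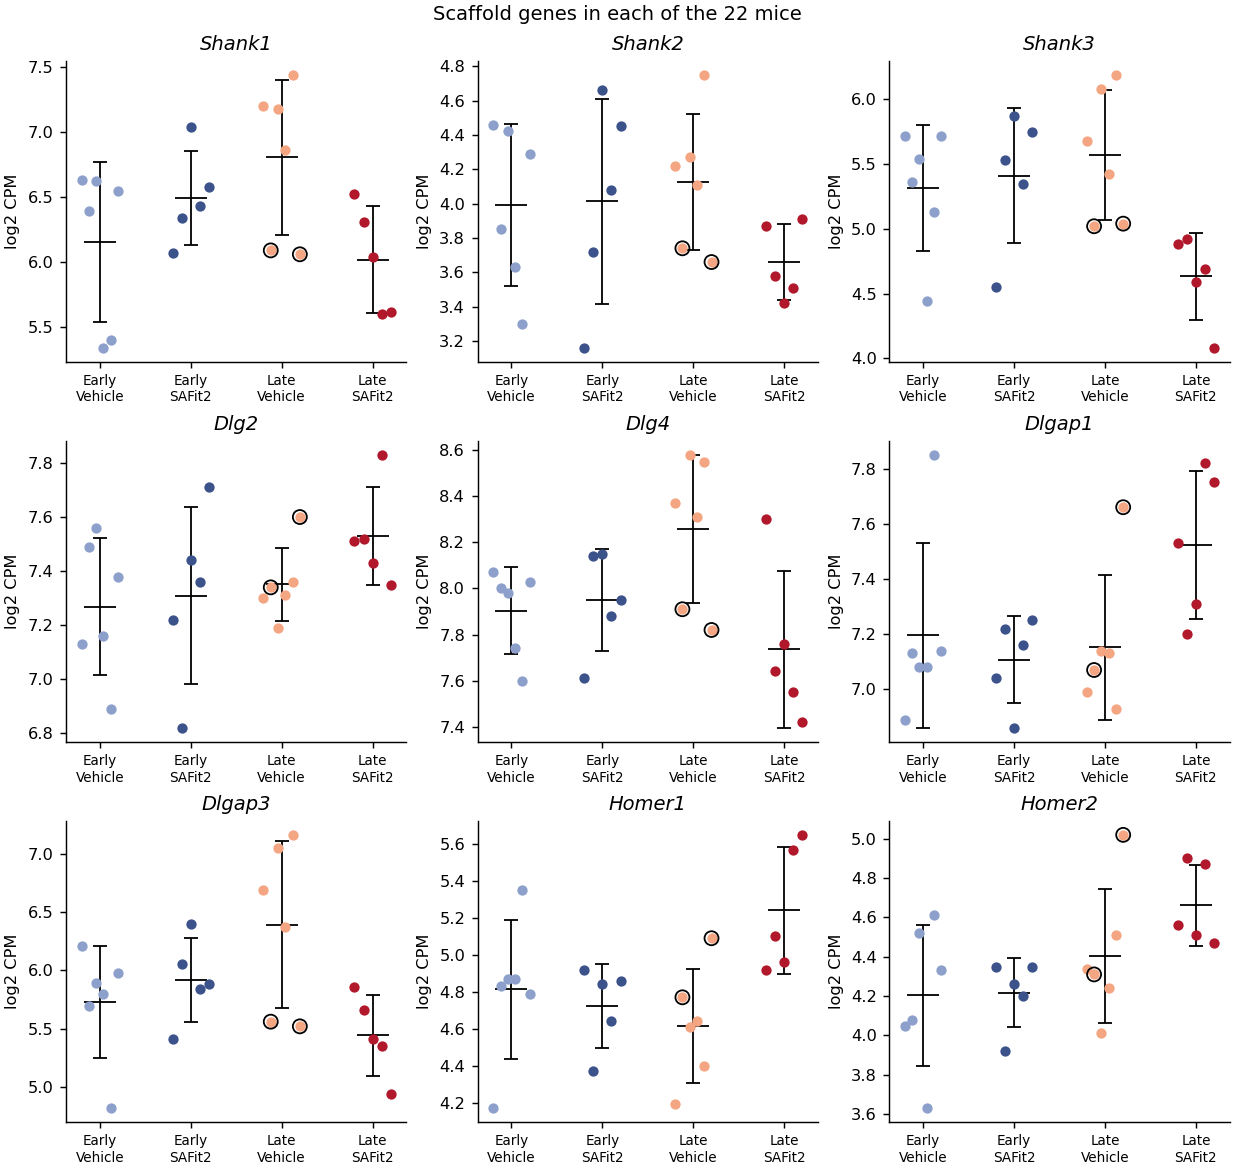
Expression of the 9 scaffold genes in log2 CPM, with 1 point per mouse and the group mean ± SD as bars, in the 4 groups on the x axis. Black rings mark Late Vehicle replicates 2 and 6. The y axes differ between genes and do not start at 0. Shank3 is the gene whose Late SAFit2 mice (4.08 to 4.92) all lie below the Late Vehicle mice (5.02 to 6.19).

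The late comparison, taken 3 days after the last gel injection, asks what SAFit2 does to spinal gene expression once joint pain is established. Of the 9 scaffold genes, 3 fell (Shank3, Dlgap3 and Dlg4) and 1 rose (Homer1) in Late SAFit2 relative to Late Vehicle mice, at a Benjamini-Hochberg adjusted limma p under 0.05 over all genes and a change of at least 1.2-fold. This was 44.4% of the set, where 12.1% of all genes tested passed. In the lower direction 33.3% of the set and 6.72% of all genes passed, and in the higher direction 11.1% and 5.33%. The share that fell was larger among genes rich in G and C. It was 461 of 1979 genes at a coding GC content of 60% or more, where Shank3 and Dlgap3 lie. At 55 to 60%, where Dlg4 lies, it was 543 of 4001. The median log2 fold change was -0.47 over the 9 genes and -0.05 over all genes. In whole tissue, a lower value cannot be told apart from fewer cells that express the gene. All 4 calls were lost when any of Late SAFit2 replicates 2, 4 and 5 or Late Vehicle replicates 1, 3, 4 and 5 was left out, that is without 7 of the 22 mice taken in turn. They were also lost in a fit of the late mice alone and in a fit without a variance trend.

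Shank3, which binds Dlgap and Homer proteins (chromosome 15, 89499623 to 89560261), stood at 4.88, 4.92, 4.59, 4.69 and 4.08 log2 CPM in Late SAFit2 replicates 1 to 5. In Late Vehicle mice the lowest value was 5.02, the median 5.55 and the highest 6.19. The groups did not overlap, which was the case for 1.71% of all genes tested and for no other gene of the set. The means were 4.63 ± 0.34 (SD, n = 5) and 5.57 ± 0.50 (SD, n = 6), which is 1.91-fold lower (log2 fold change -0.94, standard error 0.25, limma adjusted p = 0.033 and exact permutation p = 0.0065). Shank3 was also named by the study on the basis of the same mice, so its change here is no independent evidence. The gap between the groups was narrow, from 4.92 to 5.02, and Late Vehicle replicates 2 and 6 were the mice next to it.

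Shank1, the most abundant Shank in this tissue, was measured 1.73-fold lower in Late SAFit2 (6.02 ± 0.41 log2 CPM, SD, n = 5) than in Late Vehicle mice (6.81 ± 0.60, n = 6). It missed the threshold (log2 fold change -0.79 with a standard error of 0.27, limma adjusted p = 0.053 and exact permutation p = 0.0346), and values of 5.60 to 6.52 overlapped with values of 6.06 to 7.44. Shank2 was at 3.66 ± 0.22 and 4.13 ± 0.40 log2 CPM (log2 fold change -0.47, standard error 0.24, limma adjusted p = 0.17 and exact permutation p = 0.0455), with every Late SAFit2 mouse below the Late Vehicle mean. All 3 Shank genes thus had negative fold changes, of which that of Shank3 passed the test. Whether the 3 differ among themselves was not tested.

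Of the Dlg genes, which hold glutamate receptors at the synapse, Dlg4 fell. Its values in Late SAFit2 replicates 1 to 5 were 8.30, 7.64, 7.76, 7.55 and 7.42 log2 CPM, against a lowest value of 7.82, a median of 8.34 and a highest value of 8.58 in Late Vehicle mice. Replicate 1 of Late SAFit2 lay within the Vehicle range and the other 4 below all of it. The change was 1.44-fold (log2 fold change -0.52, standard error 0.15, limma adjusted p = 0.037 and exact permutation p = 0.0325). Dlg2 (PSD-93) did not pass, at 7.53 ± 0.18 against 7.35 ± 0.14 log2 CPM (log2 fold change 0.18, standard error 0.13, limma adjusted p = 0.35).

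The Dlgap genes, which join Dlg to Shank proteins, had opposite signs. Dlgap3 (SAPAP3, chromosome 4, 127169204 to 127237022) had 5.86, 5.66, 5.41, 5.35 and 4.94 log2 CPM in Late SAFit2 replicates 1 to 5. Late Vehicle mice ran from 5.52 over a median of 6.53 to 7.16, and replicates 2 and 6 at 5.56 and 5.52 were the only ones within the Late SAFit2 range. Dlgap3 fell 1.93-fold (log2 fold change -0.95, standard error 0.27, limma adjusted p = 0.035 and exact permutation p = 0.0325). Dlgap1 was measured 1.29-fold higher, at 7.52 ± 0.27 against 7.15 ± 0.26 log2 CPM, and did not pass (log2 fold change 0.37, standard error 0.15, limma adjusted p = 0.086 and exact permutation p = 0.0541).

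Homer1 (chromosome 13, 93299635 to 93405129) was the member that rose. Late SAFit2 replicates 1 to 5 had 4.92, 5.10, 4.96, 5.57 and 5.65 log2 CPM, and Late Vehicle mice lay between 4.19 and 5.09 with a median of 4.62. Only Late Vehicle replicate 6 reached into the Late SAFit2 range. The increase was 1.55-fold (log2 fold change 0.63, standard error 0.18, limma adjusted p = 0.036 and exact permutation p = 0.0108). Values per gene do not separate the short, activity-induced form of Homer1 from the long forms. Homer2 was at 4.66 ± 0.21 against 4.40 ± 0.34 log2 CPM and did not pass (log2 fold change 0.26, standard error 0.17, limma adjusted p = 0.29).

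**Figure D2:**
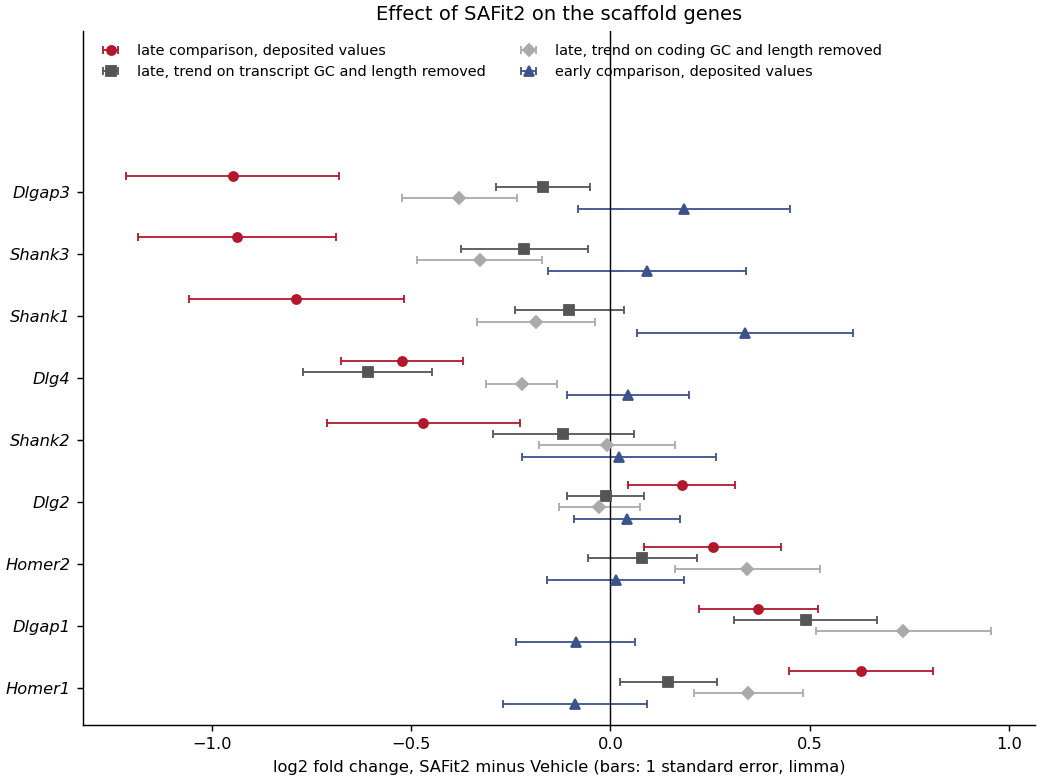
Log2 fold change of SAFit2 against Vehicle for each scaffold gene on the x axis, with 1 limma standard error as bars, in late mice (red), in late mice after removal of each library's trend on GC content and length (grey, by transcript or by coding sequence) and in early mice (blue). Shank3 and Dlgap3 move from -0.94 and -0.95 to -0.22 and -0.17 with the transcript-based removal. Dlg4 goes from -0.52 to -0.61 and Dlgap1 from 0.37 to 0.49. With the removal by coding sequence Dlg4 is at -0.22.

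In early mice, sampled long after the last injection, none of the 9 genes passed (limma adjusted p = 1.00 for each), as none of all genes tested did (0%). None had a nominal p under 0.05 either, against 2.48% of all genes. Log2 fold changes ranged from -0.09 (Homer1) to 0.34 (Shank1, standard error 0.27, exact permutation p = 0.32). Shank3 was at 4.55, 5.53, 5.87, 5.35 and 5.75 log2 CPM in Early SAFit2 replicates 1 to 5, and between 4.44 and 5.72 with a median of 5.45 in Early Vehicle mice. The groups overlapped over nearly their whole range (log2 fold change 0.09, standard error 0.25, exact permutation p = 0.74). Dlgap3, Dlg4 and Homer1 differed by 0.18, 0.04 and -0.09, each less than 1 standard error.

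The early and the late effect were then compared directly. None of the 9 differences passed the adjusted threshold (limma adjusted p of at least 0.12), as none did among all genes (0%). At a nominal p under 0.05, 6 of 9 differences passed, where 24.9% of all genes did. The early effect exceeded the late effect by 1.03 log2 units for Shank3 (standard error 0.35, exact permutation p = 0.030 over 213444 splits), by 1.13 for Dlgap3 (standard error 0.38, exact permutation p = 0.025), by 1.13 for Shank1 (standard error 0.38, exact permutation p = 0.022) and by 0.57 for Dlg4 (standard error 0.22, exact permutation p = 0.039). For Homer1 it was lower by 0.72 (difference -0.72, standard error 0.26, exact permutation p = 0.0255), and for Dlgap1 the difference was -0.46 (standard error 0.21, exact permutation p = 0.063). The late effect of the 4 called genes is thus not shown to differ from the early effect after correction over all genes.

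Between the Vehicle groups, which differ in timing and batch, 0 of 9 genes passed in limma, against 9.11% of all genes, and 3 had a nominal p under 0.05, against 24.3%. These were Dlgap3 (Late minus Early Vehicle 0.66, standard error 0.25, limma adjusted p = 0.10), Shank1 (0.65, standard error 0.26, limma adjusted p = 0.11) and Dlg4 (0.35, standard error 0.15, limma adjusted p = 0.13). For the genes that fell with late SAFit2, the Late Vehicle group was thus the highest of the 4, and Late SAFit2 the lowest. In Dlgap3 the means were 5.92 in Early SAFit2, 5.73 in Early Vehicle, 6.39 in Late Vehicle and 5.44 log2 CPM in Late SAFit2 mice. Since Late Vehicle mice enter both comparisons, the values of the 2 are not independent.

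The late fold changes of the 9 genes followed their GC content. The genes richest in G and C (Dlgap3, Shank3 and Shank1) had the lowest fold changes, and Homer1, the poorest in its transcript, had the highest. Across the 9 genes the correlation between fold change and GC content was r = -0.85 (a description, n = 9 genes measured in the same libraries) for the coding sequence and -0.88 for the longest transcript. Across all genes it was -0.57 and -0.61. Genes with a coding GC content of 60% or more, among them Shank1, Shank3 and Dlgap3, had a median late log2 fold change of -0.48 (1979 genes), and those of 45 to 50%, among them Homer1 and Dlg2, one of 0.20 (3168 genes). The scaffold genes that lay farthest from the median of their own GC range were Dlgap1 (0.37, range median -0.32), Dlgap3 (-0.95, range median -0.48), Shank3 (-0.94, the same range) and Homer1 (0.63, range median 0.20).

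**Figure D3:**
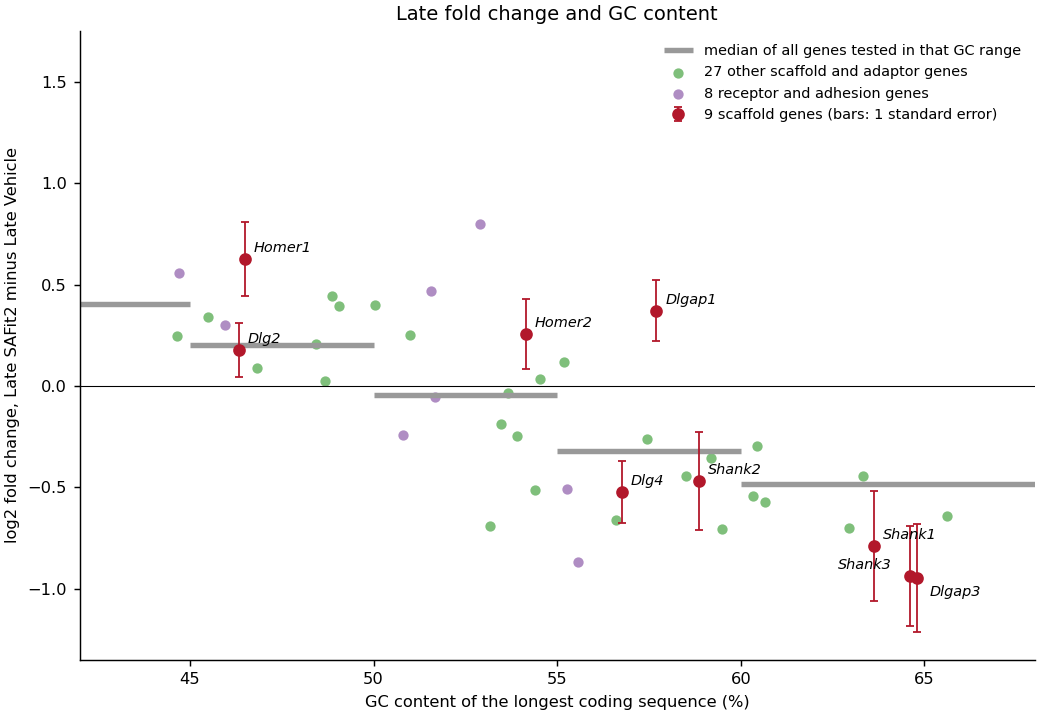
Late log2 fold change on the y axis against GC content of the longest coding sequence on the x axis. Red points are the 9 scaffold genes with 1 standard error, green and purple points other genes of the postsynaptic density, and grey bars the median of all genes tested in 5 ranges of GC content, the outer 2 of which go on beyond the axis. The grey medians fall from 0.41 below 45% to -0.48 at 60% and above.

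The libraries themselves differed in this trend. For each library the slope of its values, relative to the mean of all libraries, was taken on GC content over 16199 genes other than the 9. It was -0.30 ± 0.16 log2 CPM per 10 percentage points of GC in Late SAFit2 (SD, n = 5) and 0.17 ± 0.33 in Late Vehicle mice (n = 6; exact permutation p = 0.028). In early mice it was 0.07 ± 0.17 and 0.02 ± 0.17 (exact permutation p = 0.62). Late Vehicle replicates 2 and 6, at -0.16 and -0.32, were the Late Vehicle libraries with a negative slope. Over the 22 mice Shank3 correlated with this slope with r = 0.81 and rho = 0.78 (permutation p = 2e-05 and 8e-05, adjusted over the 9 genes 3.6e-05 and 0.00014), and without the 2 libraries farthest from the median with r = 0.77. Dlgap3 (r = 0.90), Dlg4 (0.89), Shank1 (0.80) and Shank2 (0.69) correlated in the same direction and Homer1 (-0.88), Dlgap1 (-0.71) and Homer2 (-0.62) in the opposite. These 8 had a permutation p adjusted over the 9 genes of at most 0.0023, whereas Dlg2 passed by rho but not by r (r = -0.41, rho = -0.43, adjusted permutation p = 0.059 and 0.046). The slope was fitted on other genes of the same libraries, and the share of all genes that correlate with it was not measured.

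Within groups, on deviations from the group means, 8 of 9 genes passed by r (7 by rho, without Dlgap1), with r = 0.67 for Shank3, 0.90 for Dlgap3, 0.90 for Dlg4 and -0.79 for Homer1 (permutation within groups, adjusted p of at most 0.0045 for these 4). Among the 11 late mice all 9 passed by r (8 by rho, without Homer2), and r was 0.90 for Shank3, 0.96 for Dlgap3 and 0.95 for Dlg4. Among the 11 early mice 3 passed, Dlgap3 (0.87), Dlg4 (0.86) and Homer1 (-0.89), and Shank3 did not (r = 0.58, rho = 0.47, permutation p = 0.059 and 0.14). How many of all genes follow the slope was not measured, so these counts cannot be read as a trait of the scaffold set.

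**Figure D4:**
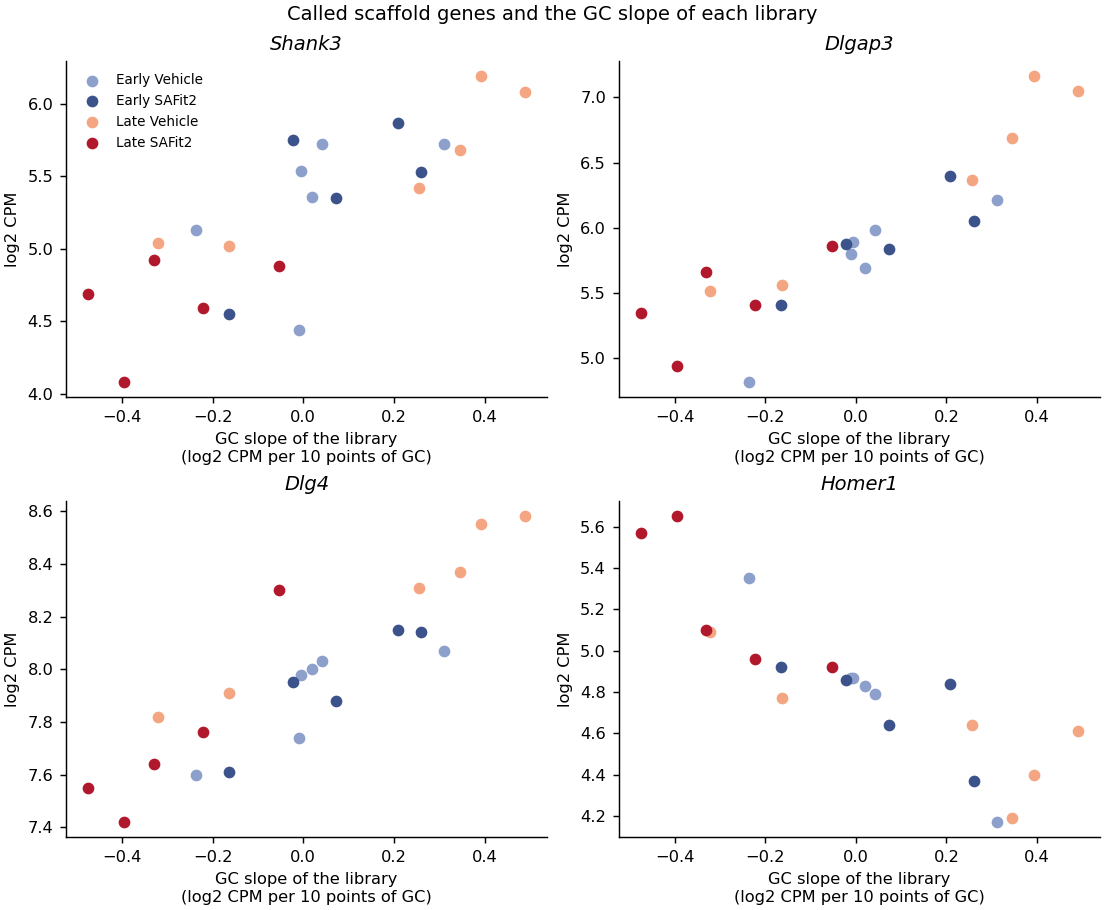
Expression of the 4 called genes (y axis, log2 CPM) against the GC slope of the library (x axis, log2 CPM per 10 points of GC), with 1 point per mouse in the color of its group. Shank3, Dlgap3 and Dlg4 are higher and Homer1 is lower in libraries with a higher slope, within and between groups.

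When each library's smooth trend on transcript GC content and length was removed, 0 of the 9 genes passed in limma in late mice, as 0 of all 16208 genes did. Such a removal would also take away a response to SAFit2 that itself ran along GC content. Shank3 was then at 5.13 ± 0.27 in Late SAFit2 and 5.34 ± 0.20 log2 CPM in Late Vehicle mice, with overlapping groups (log2 fold change -0.22, standard error 0.16, limma adjusted p = 0.55). Dlgap3 (-0.17), Shank1 (-0.10), Shank2 (-0.12) and Homer1 (0.15) were likewise close to 0. Dlg4 and Dlgap1 did not shrink, at -0.61 (standard error 0.16, limma adjusted p = 0.11) and 0.49 (standard error 0.18, limma adjusted p = 0.20). Transcript and coding GC content differ most in Dlg4 and Homer2 among the 9, and with coding GC content, an alternative chosen after the data had been seen, its fold change was -0.22 (limma adjusted p = 0.17). That of Dlgap1 was then 0.73 (limma adjusted p = 0.086), of Shank3 -0.33 and of Homer1 0.35. The part of the library trend in the late fold changes of the scaffold genes was not tested beyond these removals.

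The 9 genes did not vary together as a unit between mice. On deviations from the group means over the 22 mice, Shank1 and Shank3 correlated with r = 0.86, Dlg4 and Dlgap3 with 0.88, and Shank3 with Dlg4 and Dlgap3 with 0.77 and 0.76. Homer1 ran against them (r = -0.50 with Shank3 and -0.71 with Dlgap3) and with Dlgap1 (0.72), and Dlg2 was near 0 with Shank3 (0.18). These are descriptions over 22 libraries that share the GC trend given above. Of 16420 other named genes, those most like Shank3 in this measure were Agap2 (r = 0.92), a GTPase regulator of the postsynaptic density, Gm20604 (0.91), Zc3h7b (0.90), Ercc2 (0.90), a DNA repair helicase, and Flcn (0.90), the folliculin gene. Their coding GC content ranged from 57.3% to 65.3%. Shank1 took place 35 in this order, Dlg4 229, Dlgap3 276, Shank2 347, Dlg2 6864, Homer2 8207, Dlgap1 12611 and Homer1 14078.

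A further 27 genes of scaffold and adaptor proteins of the postsynaptic density were all tested. In late mice 5 fell, 2 rose and 20 did not pass, where 12.1% of all genes passed, and the median log2 fold change was -0.25. Those that fell were Agap2 (-0.70, standard error 0.21), Dlgap4 (-0.57, standard error 0.19), which belongs to the family of Dlgap1 and Dlgap3, Pick1 (-0.51, standard error 0.16), an adaptor of AMPA receptors, and Lzts3 and Sharpin (both -0.44, standard error 0.14), which bind Shank proteins. Those that rose were Abi1 (0.44, standard error 0.11), which links Shank to actin, and Dlg1 (0.34, standard error 0.10), the SAP97 scaffold. Adjusted limma p ranged from 0.032 to 0.049. Next in order of p were Begain (-0.64, limma adjusted p = 0.055) and Dynll1 (0.39, limma adjusted p = 0.060). The GC content of the coding sequence was 54.4 to 63.3% in the 5 that fell and 45.5 and 48.9% in the 2 that rose. The count of 7 was not stable. It was 4 with median centring, 2 with quantile normalization, 2 (both higher) with limma voom, 11 with the replicate block and 18 with library quality weights. Without single mice it ran from 0, for the same 7 late mice whose removal ended the calls of the 9 genes, to 15 without Late Vehicle replicate 6. It was 0 in limma without a variance trend, in a fit of the late mice alone and after removal of the GC and length trend. In limma 0 of the 27 passed in early mice (0 at a nominal p under 0.05), in the early-late difference (14 nominal) and between the Vehicle groups (6 nominal).

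**Figure D5:**
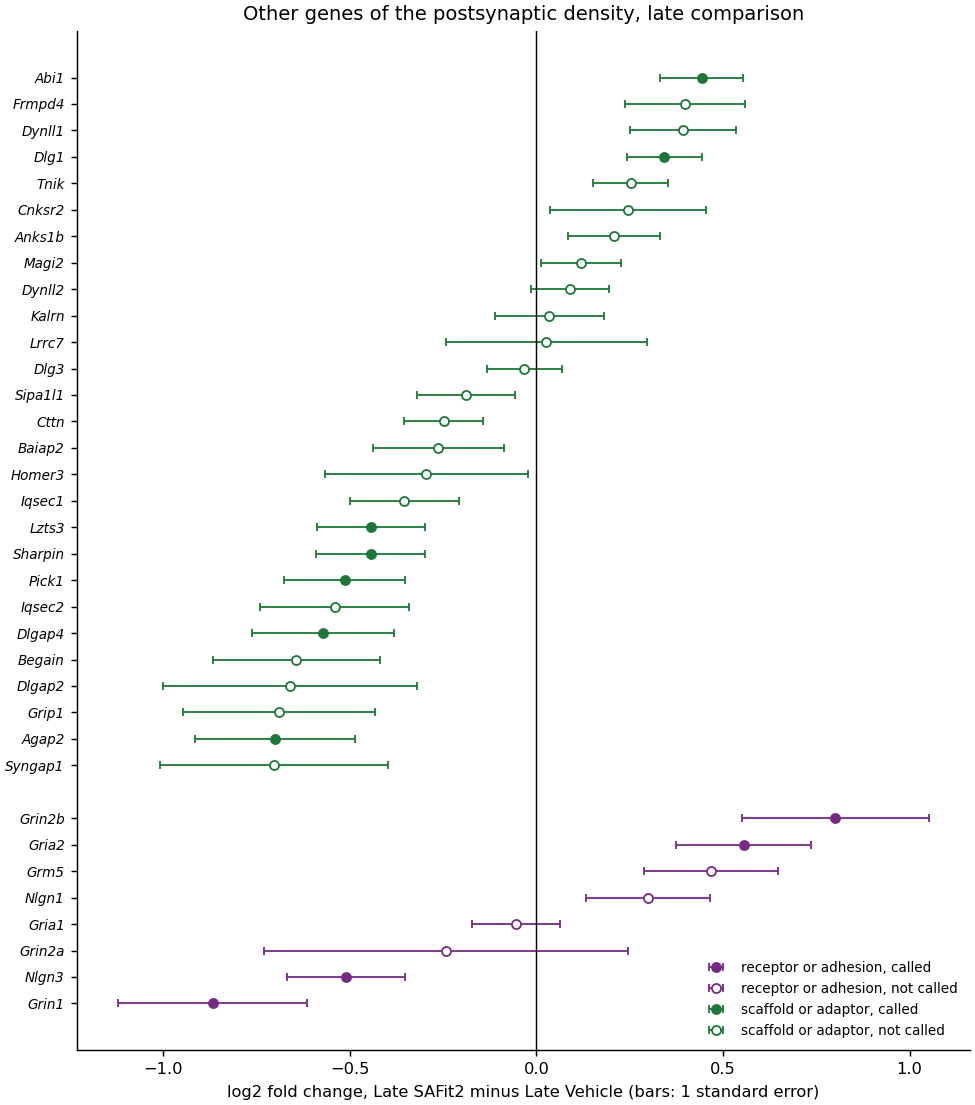
Late log2 fold change (x axis) with 1 limma standard error for 27 other scaffold and adaptor genes (green) and 8 receptor and adhesion genes (purple). Filled points passed an adjusted p under 0.05, namely 7 of the 27 and 4 of the 8.

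Of 8 receptors and adhesion proteins held by the scaffold, 2 fell and 2 rose in late mice, where 12.1% of all genes passed. Grin1, the obligatory NMDA receptor subunit (-0.87, standard error 0.25, limma adjusted p = 0.037), and Nlgn3, a neuroligin (-0.51, standard error 0.16, limma adjusted p = 0.043), fell. Grin2b, a glutamate-binding NMDA receptor subunit (0.80, standard error 0.25, limma adjusted p = 0.044), and Gria2, the AMPA receptor subunit that limits calcium entry (0.56, standard error 0.18, limma adjusted p = 0.046), rose. Grm5 (0.47), a metabotropic receptor that Homer binds, and Gria1 (-0.06), Grin2a (-0.24) and Nlgn1 (0.30) did not pass. None of the 8 passed in limma without a variance trend, in a fit of the late mice alone or without any of the same 7 late mice, and at most 1 did with limma voom. After removal of the GC and length trend none of the 8 passed in limma, and the values were -0.31 for Grin1, -0.47 for Nlgn3, 0.69 for Grin2b and 0.09 for Gria2. In early mice none passed in limma, nor had any a nominal p under 0.05. In limma, Grin2b (-0.85, adjusted p = 0.025) and Gria2 (-0.56, adjusted p = 0.038) passed between the Vehicle groups, against 9.11% of all genes. Both were lower in Late than in Early Vehicle mice, a difference in which timing and batch cannot be told apart. Mean Grin2b was 2.72 log2 CPM in Early SAFit2, 2.77 in Early Vehicle, 2.72 in Late SAFit2 and 1.92 in Late Vehicle mice. Mean Gria2 was 8.01, 8.17, 8.16 and 7.60 in the same order. In both genes Late SAFit2 was thus near the early means, and Late Vehicle was the lowest group.

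Neurons make these synapses. Of 8 neuron markers 1 fell in late mice (Slc32a1, the transporter of inhibitory synapses) and none rose, and the median log2 fold change was 0.07. The markers differed in sign, with 5 of 8 positive, from -0.55 (Slc32a1) and -0.51 (Tubb3) to 0.34 (Slc17a6) and 0.37 (Snap25). Their summed level was 5314 to 5793 CPM in Late SAFit2 and 4536 to 5423 CPM in Late Vehicle mice. Snap25, the most abundant of them, weighs most in this sum, so the sum does not speak for all 8. Of 3 endothelial markers 1 fell (Cldn5, -0.53), of 3 ependymal markers 1 fell (Foxj1, -0.77), and of 3 motor neuron, 4 astrocyte, 4 oligodendrocyte and 4 microglia markers none passed in limma. The part of cell composition in the scaffold results was not tested.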

How the data were processed

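Deposited values are log2 CPM of 22 libraries of lumbar cord (ipsilateral dorsal horn quadrants, according to the methods). The authors trimmed reads (Trimmomatic), aligned them to mm10 (HISAT2), counted them per gene with featureCounts and applied TMM scaling in edgeR. A floor of -3.15 shared by all libraries marks 0 reads. Reads worked back from the values were whole in 100% of cases (tolerance 0.02 reads). No 2 libraries held the same values. Whether libraries were prepared separately is not given in the sources used here, and p-values measure the spread between them as sequenced.

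The 16765 genes that reached -1 on the log2 CPM scale in 5 libraries were tested with limma 3.58.1 in R 4.3.3 on the deposited log2 values, with a mean per group and a variance trend. Calls needed a Benjamini-Hochberg p under 0.05 with at least a 1.2-fold difference. Fold changes of genes with few reads are understated by the prior count in the values. Permutation tests are two-sided and exact over all splits, with 100000 permutations for correlations. GC content, length and sequences came from GENCODE M21. The GC correction (loess, span 0.5) was tested on simulated data in which a library's GC trend did not depend on its group. That test does not cover the late groups, whose slopes differed. Alternatives were other filters, pseudocounts, scalings, weights, limma voom on recovered reads, replicate blocks and leaving out each mouse. The 9 genes, the lists and most alternatives were chosen with earlier results of these data known. Named genes are the 9, called genes of the 27-gene list with the 2 next by p, 8 receptor genes (1 more on that list, and 1 marker list, are not reported here), and the 5 genes most like Shank3. Replicate numbers were not used to pair the mice in the main fit, and the labels give no cage. Python 3.11.15 with scipy 1.17.1 and pandas 2.3.3 was used for the other steps.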

Additional observations from a re-analysis of the deposited data

Results flagged for a closer look

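Of the 36 sets of values (9 genes in 4 groups), 3 had a mouse far from the rest of its group by Dixon's test, where chance flags about 1 in 20 sets. Dlgap1 was 7.85 log2 CPM in Early Vehicle replicate 5, with the next value at 7.14, and 7.66 log2 CPM in Late Vehicle replicate 6, with the next at 7.14. Dlgap3 was 4.82 log2 CPM in Early Vehicle replicate 5, with the next at 5.69. The GC slopes of these 2 libraries, -0.24 and -0.32, are the lowest of the early and of the Late Vehicle mice, and Early Vehicle replicate 5 has the highest mitochondrial share of all libraries (18.3% of reads). Without Early Vehicle replicate 5 the number of scaffold genes called in late mice was 6, and without Late Vehicle replicate 6 it was also 6, while the number over all genes was 2916 and 4975 against 2021 with all mice.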

How the results depend on the processing

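Of the 9 genes, 4 passed in late mice. The number was 0 without a variance trend, with only the mice compared, and after removal of the GC and length trend by transcript or by coding sequence (the latter chosen after seeing the data), 1 (Dlg4, limma adjusted p = 0.045) with that removal and the replicate block, 7 with library quality weights and 4 to 6 in all other settings. Leaving out single mice gave 0 to 6. In early mice the number was 0 in limma throughout. For the early-late difference it was 5 with quality weights, 5 with the replicate block and 0 to 5 without single mice (5 without Late Vehicle replicate 6). Between Vehicle groups it was 3 with quality weights, 2 with median centring, 2 after GC removal with or without the replicate block, 3 after coding GC removal and 0 to 3 without single mice. Mice with the same replicate number were mostly little alike (10 pairs, r of deviations -0.24 to 0.32, 2 over 0.1). These values cannot decide whether such mice shared a cage. Of all genes, 2021 passed in late mice, 876 with limma voom, 6381 with quality weights, 4219 with the replicate block, 62 without a variance trend and 0 with only the mice compared or after GC removal without the block. Among early mice 3 of 9 genes followed the GC slope, with no share over all genes measured. The cause of these shifts was not tested.

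Signs turned for small fold changes (log2) that had not passed: GC and length trend removed (Dlg2 late -0.012, Shank2 early -0.080, Shank3 early -0.061, Homer2 early -0.029, Dlg2 early minus late 0.026, Homer1 Late minus Early Vehicle 0.025), coding GC and length trend removed (Dlg2 late -0.028, Shank2 early -0.086, Shank3 early -0.024, Dlg4 early -0.023, Shank2 early minus late -0.077, Dlg2 early minus late 0.061), library quality weights (Shank2 early -0.0065, Shank3 early -0.047, Dlg2 early -0.035, Dlg4 early -0.059, Dlgap1 early 0.010, Homer2 early -0.026, Dlg2 Late minus Early Vehicle -0.108), GC and length trend removed, with replicate block (Shank2 early -0.028, Homer2 early -0.0029, Dlg2 early minus late 0.031, Homer1 Late minus Early Vehicle 0.025), limma voom on reads (Shank2 early -0.0026, Homer2 early -0.016), quantile normalization (Dlg2 Late minus Early Vehicle -0.053), library sizes without Bc1 and mitochondrial genes (Dlg2 Late minus Early Vehicle -0.032), median centring (Dlgap1 Late minus Early Vehicle 0.023). Over single mice left out, signs turned within these ranges: Shank2 early -0.140 to 0.234, Shank3 early -0.085 to 0.307, Dlg2 early -0.059 to 0.163, Dlg4 early -0.017 to 0.127, Dlgap1 early -0.149 to 0.044, Homer1 early -0.218 to 0.018, Homer2 early -0.101 to 0.094, Shank2 Late minus Early Vehicle -0.0036 to 0.227, Dlgap1 Late minus Early Vehicle -0.146 to 0.089. In late mice no fold change of the 4 called genes changed sign. Shank2 and Homer2 rested on few reads, with 113 to 570 and 164 to 612 per library. Shank3 had 150 to 1398 per library, of which 150 to 530 in Late SAFit2 mice.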
